A study of Mus musculus with 4 samples.

Results

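Long-chain acyl-CoA synthetases are the enzymes that join long-chain fatty acids to coenzyme A, and the probe sets of this gene family were compared over all arrays of a mouse heart series. The family was taken as Acsl1, Acsl3, Acsl4, Acsl5 and Acsl6, and its probe sets as those that the platform annotation pairs with exactly 1 of these symbols. This rule found 9 of the 45037 probe sets tested, 3 for Acsl3, 3 for Acsl4, 1 for Acsl5 and 2 for Acsl6. No probe set carried the symbol Acsl1 in the annotation used here, so Acsl1 was not analysed here.

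The series held 4 arrays of total RNA, 1 array per mouse heart. The Tg-Sirt1 group was 2 transgenic mice, Tg-Sirt1 1 and Tg-Sirt1 2, with a transgene of Sirt1, the gene of an NAD-dependent protein deacetylase. The NTg group was 2 wild type mice, NTg 1 and NTg 2. The labels and notes at hand state no strain, age, sex, transgene promoter or founder line. Where a label has 2 values below, they are those of its replicates 1 and 2. The series asked how Sirt1 regulates gene expression in the heart.

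A fatty acid that enters a cardiomyocyte must be joined to coenzyme A before it can be burned in mitochondria or built into triglyceride and phospholipid, and these synthetases carry out that step at the expense of ATP. The isoforms differ in membrane location and in preferred fatty acid. Acsl1 is the main isoform of the mouse heart and feeds beta-oxidation. Acsl3 works at the endoplasmic reticulum and at growing lipid droplets, Acsl4 prefers arachidonic acid and supplies the polyunsaturated phospholipids that are oxidised in ferroptosis, Acsl5 lies at mitochondria and the endoplasmic reticulum, and Acsl6 is best known from brain, where it retains docosahexaenoic acid.

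The results turn on Acsl3 and Acsl4, whose brightest probe sets had the largest ranges, and on Acsl5, whose brightest probe set ranged least, so the promoter windows of these 3 genes are shown. Each runs from 250 bases before to 50 bases after an annotated start in RefSeq, build GRCm38.p6, and is written 5′ to 3′ on the strand of the gene. The windows are chr1:78657575-78657874 on the plus strand for Acsl3, chrX:142390486-142390785 on the minus strand for Acsl4 and chr19:55253119-55253418 on the plus strand for Acsl5. Capitals mark the GC box GGGCGG, the CCAAT box CCAAT and the cyclic AMP response motif TGACG, each on either strand.
Acsl3: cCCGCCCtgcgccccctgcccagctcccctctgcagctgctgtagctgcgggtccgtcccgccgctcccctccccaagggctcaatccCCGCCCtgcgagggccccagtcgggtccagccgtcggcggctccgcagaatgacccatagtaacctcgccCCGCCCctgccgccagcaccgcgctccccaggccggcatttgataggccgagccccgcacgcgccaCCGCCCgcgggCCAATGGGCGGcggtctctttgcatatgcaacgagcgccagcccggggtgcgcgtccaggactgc
Acsl4: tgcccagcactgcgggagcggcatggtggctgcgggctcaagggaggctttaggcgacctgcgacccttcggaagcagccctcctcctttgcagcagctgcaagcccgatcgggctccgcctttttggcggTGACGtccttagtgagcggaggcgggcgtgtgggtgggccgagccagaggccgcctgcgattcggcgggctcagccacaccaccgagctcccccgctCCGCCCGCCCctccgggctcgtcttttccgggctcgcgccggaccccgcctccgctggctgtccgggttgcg
Acsl5: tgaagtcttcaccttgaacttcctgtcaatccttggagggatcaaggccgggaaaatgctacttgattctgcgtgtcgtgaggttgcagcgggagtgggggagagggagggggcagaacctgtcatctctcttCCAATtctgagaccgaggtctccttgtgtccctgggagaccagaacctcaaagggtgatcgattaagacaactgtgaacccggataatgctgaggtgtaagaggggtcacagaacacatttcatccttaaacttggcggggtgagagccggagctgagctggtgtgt

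The Acsl3 window held 5 GC boxes and 1 CCAAT box, which directly adjoins a GC box. The Acsl4 window held 2 overlapping GC boxes and 1 TGACG, and the Acsl5 window held 1 CCAAT box and no GC box. Of all 32851 promoter windows, 35.7% held a GC box, 37.4% a CCAAT box and 20.8% TGACG. G and C made up 74.0% of the Acsl3 window, 71.7% of the Acsl4 window and 53.0% of the Acsl5 window, against a median of 52.7% over all windows. The nuclear receptor motif AGGTCA, present in 16.3% of windows, and TATAAA, present in 13.6%, were in none of these 3 windows. Acsl6, on chromosome 11, has 3 annotated windows with 1, 2 and 1 GC boxes, and 1 of them held AGGTCA at 2 positions. These matches describe the letters of the windows and show no binding.

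Facts of the whole series bear on every value. The array labelled Tg-Sirt1 1 and NTg 1 were near-identical, with an SD of 0.0759 log2 units over the differences of all probe sets and 0 probe sets over 2-fold apart, whereas the SD ran from 0.342 to 0.405 in the other 5 pairs. This pair thus adds nearly nothing to a difference between the labels, and its arrays are no independent samples of them. Sirt1 itself read 7.16 on the array labelled Tg-Sirt1 1 and stood at 7.93 for Tg-Sirt1 2, against 7.30 for NTg 1 and 7.17 for NTg 2, so the array labelled Tg-Sirt1 1 was not above the NTg arrays. Cardiomyocyte markers fitted the tissue, with all 10 measured and Myl2 at 13.96 to 14.15. The array medians ran from 6.22 to 6.30, and NTg 2 had the narrowest spread of values (SD 1.89, against 1.98 to 2.01). All levels here are log2 signal after RMA (robust multi-array averaging), in which 1 unit is a 2-fold step.

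Acsl4 differed most between arrays. Its brightest probe set, 1433531_at, read 7.39 on the array labelled Tg-Sirt1 1 and stood at 8.10 for Tg-Sirt1 2, against 7.27 for NTg 1 and 6.13 for NTg 2. Both Tg-Sirt1 values lay above both NTg values, with Tg-Sirt1 2 alone at the top, NTg 2 alone at the bottom and the near-identical arrays 0.12 apart between them. Tg-Sirt1 2 exceeded NTg 2 by 1.97 log2 units, a 3.92-fold difference, and 0.091% of all probe sets lay as far apart in that direction. Against NTg 1, Tg-Sirt1 2 was 0.83 higher, or 1.78-fold.

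The label means for Acsl4 1433531_at were 7.75 ± 0.50 in Tg-Sirt1 and 6.70 ± 0.81 in NTg (SD, n = 2 each). Their difference, the log2 fold change, was 1.05 ± 0.44 (SE; 95% confidence interval -0.08 to 2.17). In limma its unadjusted p was 0.0621 and its adjusted p 0.996. The difference did not pass the threshold of 0.05. It was 0.48 without NTg 2, 1.62 without NTg 1, 0.69 without Tg-Sirt1 2 and 1.40 without the array labelled Tg-Sirt1 1.

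The other probe sets of Acsl4 showed less or none of this. Probe set 1418911_s_at read 6.23 on the array labelled Tg-Sirt1 1 and stood at 6.48 for Tg-Sirt1 2, against 6.27 for NTg 1 and 5.51 for NTg 2. It was lowest on NTg 2 and highest on Tg-Sirt1 2 too, but the labels overlapped (log2 fold change 0.47 ± 0.28, SE), and the difference was 0.09 without NTg 2. The dim probe set 1451828_a_at read 4.61 and 4.84 on the Tg-Sirt1 arrays, against 4.61 and 4.74 on the NTg arrays. Its whole range of 0.23 covered NTg 2, which was not the lowest array there. The suffix _s_at marks a probe set whose probes may also match other transcripts, and _a_at one that matches several transcripts of 1 gene.

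**Figure D1:**
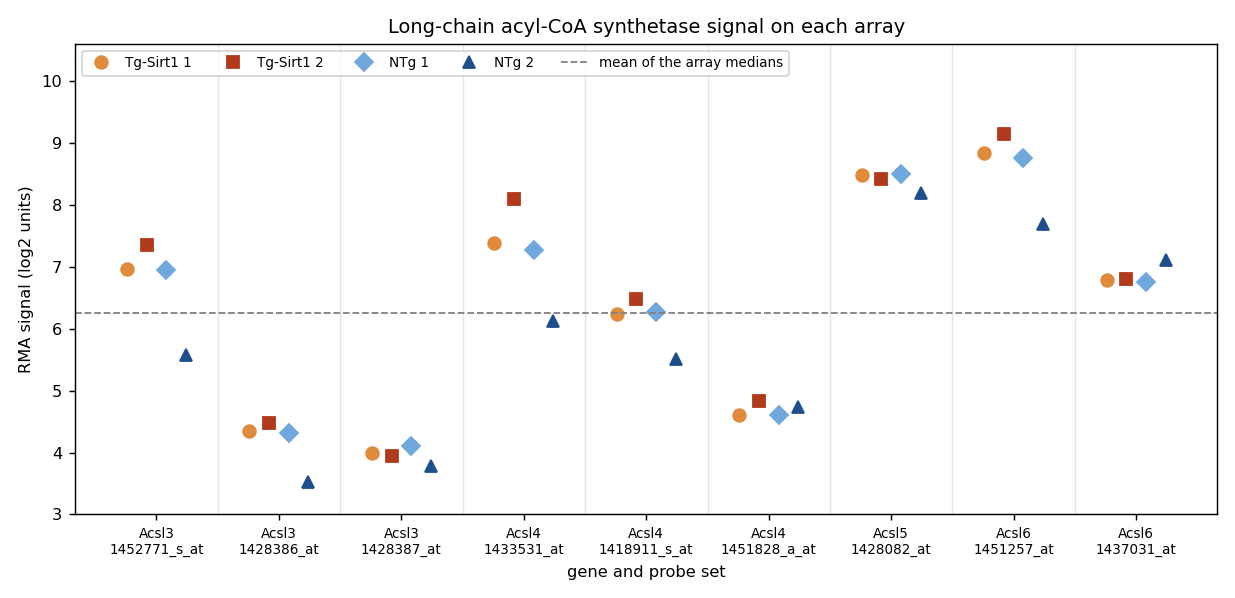
RMA signal in log2 units (y axis) of each long-chain acyl-CoA synthetase probe set (x axis) on the 4 arrays, 1 point per array, with the mean of the array medians as a dashed line. NTg 2 is the lowest array at 7 of 9 probe sets, and the array labelled Tg-Sirt1 1 and NTg 1 nearly coincide throughout.

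Acsl3, the lipid droplet isoform, followed the same order of arrays in its brightest probe set. Probe set 1452771_s_at read 6.96 on the array labelled Tg-Sirt1 1 and stood at 7.35 for Tg-Sirt1 2, against 6.95 for NTg 1 and 5.57 for NTg 2. NTg 2 stood 1.38 or more below every other array, while the array labelled Tg-Sirt1 1 and NTg 1 were 0.01 apart, so the labels were separated by the smallest step that the deposited values allow. Tg-Sirt1 2 was 1.78 above NTg 2, a 3.43-fold difference, and 0.40 above NTg 1. The means were 7.16 ± 0.28 in Tg-Sirt1 and 6.26 ± 0.98 in NTg (SD, n = 2 each). The log2 fold change of 0.90 had a 95% confidence interval from -0.30 to 2.09 and a limma adjusted p of 0.996, and it was 0.21 without NTg 2 and 1.59 without NTg 1.

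Both other Acsl3 probe sets were dim, at percentiles 8.96 and 6.09 of all probe sets by mean signal. The first, 1428386_at, read 4.35 and 4.48 on the Tg-Sirt1 arrays, against 4.32 and 3.53 on the NTg arrays, and again only NTg 2 stood apart. The second, 1428387_at, read 4.0 and 3.94 on the Tg-Sirt1 arrays, against 4.11 and 3.79 on the NTg arrays. The labels overlapped in this second probe set, whose log2 fold change was 0.02 and took the other sign, -0.14, without NTg 2.

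Acsl6, the isoform known from brain, had probe sets that placed NTg 2 at opposite ends. Probe set 1451257_at read 8.84 on the array labelled Tg-Sirt1 1 and stood at 9.15 for Tg-Sirt1 2, against 8.76 for NTg 1 and 7.69 for NTg 2. The labels did not overlap, and NTg 2 was again far below the rest, 1.46 under Tg-Sirt1 2 (2.75-fold) and 1.07 under NTg 1. Its log2 fold change of 0.77 had a 95% confidence interval from -0.18 to 1.72 and a limma adjusted p of 0.996. Without NTg 2 it was 0.24.

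Probe set 1437031_at of Acsl6 read 6.78 and 6.81 on the Tg-Sirt1 arrays, against 6.75 and 7.11 on the NTg arrays. Here NTg 2 was the highest array, and the other 3 lay within 0.06 of each other. The gap between both Acsl6 probe sets was therefore 2.06 on the array labelled Tg-Sirt1 1 and stood at 2.34 for Tg-Sirt1 2, against 2.01 for NTg 1 and just 0.58 for NTg 2. Which transcripts of Acsl6 each probe set reads was not determined here.

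Acsl5, with a single probe set, varied least among the brightest probe sets of the 4 genes. Probe set 1428082_at read 8.49 on the array labelled Tg-Sirt1 1 and stood at 8.42 for Tg-Sirt1 2, against 8.50 for NTg 1 and 8.20 for NTg 2. The labels overlapped, and NTg 2 was lowest by 0.22. The log2 fold change was 0.11 ± 0.16 (SE) with a 95% confidence interval from -0.30 to 0.51, and it was -0.05 without NTg 2. That interval is too wide to show that Acsl5 was level between the labels.

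Over the family, 8 of 9 probe sets had a higher Tg-Sirt1 mean, against 45.6% of all probe sets, and the median log2 fold change was 0.47, against -0.02 over all. The median was 0.25 with an offset of 16 on the linear scale, against -0.01 over all. With the mean of the near-identical arrays taken as 1 Tg-Sirt1 array it was 0.86, against -0.03 over all. Without dim probe sets 5 members were left, of which 4 had a higher Tg-Sirt1 mean, against 55.5% of all. Their median was 0.77, against 0.03 over all. Without NTg 1 the median of the 9 was 0.85, against -0.04 over all. Without NTg 2 the count and the median were 7 of 9 and 0.10, against 52.6% and 0.01 over all. In limma 0 of 9 passed an adjusted p of 0.05, as 0% of all probe sets did, and 0 of 9 had an unadjusted p under 0.05, which 28 of the 45037 had. Both Tg-Sirt1 arrays lay above both NTg arrays at 4 of 9 probe sets, against 9.59% of all, and below them at 0 of 9, against 11.4%. The probe sets of 1 gene read the same transcripts in part and are not independent, and these 4 belong to 3 genes.

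**Figure D2:**
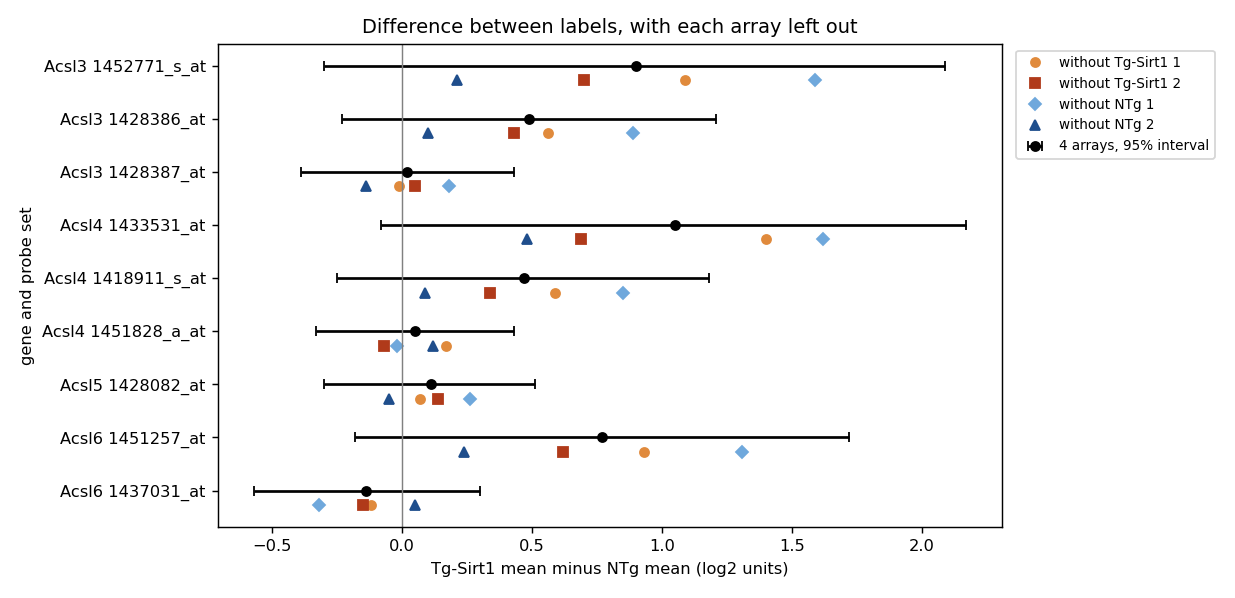
Tg-Sirt1 mean minus NTg mean in log2 units (x axis) for each probe set (y axis), as a black point with its 95% confidence interval from limma over 4 arrays, and as coloured points with 1 array left out. Every interval includes 0. Leaving out NTg 2 brings the 3 largest differences to 0.48 (Acsl4 1433531_at), 0.21 (Acsl3 1452771_s_at) and 0.24 (Acsl6 1451257_at).

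The contrast lay between single arrays more than between the labels. A range of at least 1 log2 unit over the 4 arrays was reached by 3 of 9 probe sets, the brightest ones of Acsl3, Acsl4 and Acsl6, against 4.3% of all. The same 3 were over 2-fold higher on Tg-Sirt1 2 than on NTg 2, against 1.3% of all, and over 2-fold higher on the array labelled Tg-Sirt1 1 than on NTg 2, against 0.999%. Over 2-fold above NTg 1, Tg-Sirt1 2 had 0 of 9, against 0.164% of all. NTg 2 was the lowest array at 7 of 9 probe sets, against 29.6% of all, and was lowest by over 1 log2 unit at 3 of 9, against 0.404%. Tg-Sirt1 2 was the highest array at 6 of 9, against 30.1% of all. After a second quantile normalization the counts for NTg 2 were 7 and 2 of 9, with 31.3% and 0.364% of all, and after centring on medians they were 7 and 3 of 9, with 39.0% and 0.522% of all.

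**Figure D3:**
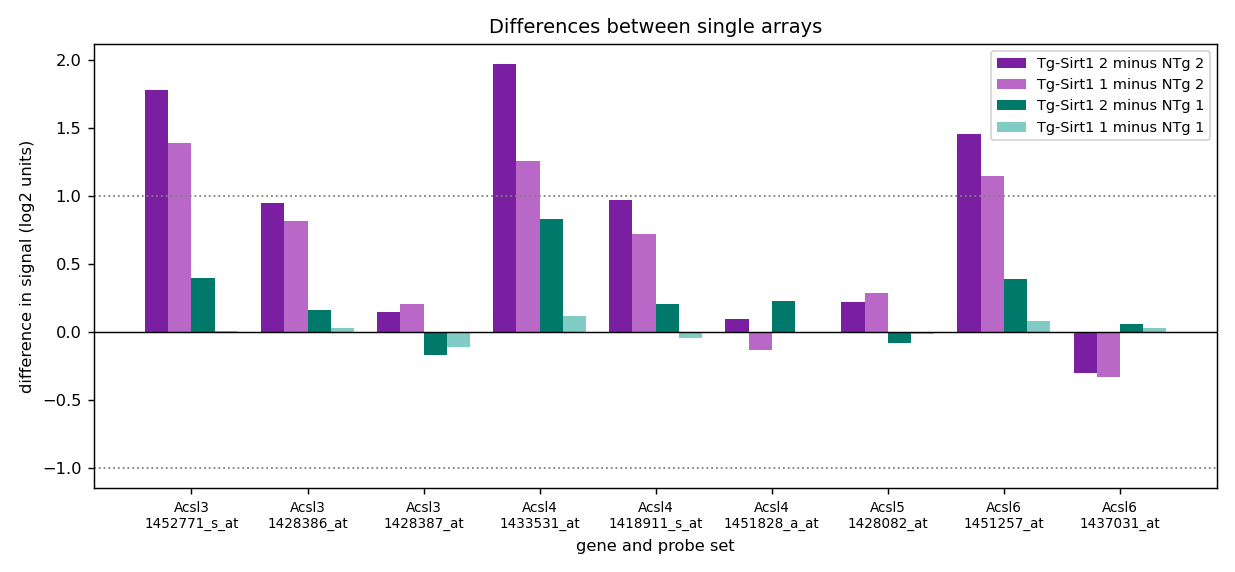
Difference in log2 signal (y axis) between each Tg-Sirt1 array and each NTg array for every probe set (x axis), with dotted lines at a 2-fold difference. Only the bars against NTg 2 pass the upper line, for the brightest probe sets of Acsl3, Acsl4 and Acsl6, and bars that share an array are not independent.

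Isoform levels can be set side by side only as signal, since probe sets differ in how strongly they bind their target. By mean signal over the arrays, Acsl6 1451257_at stood at percentile 84.2 of all probe sets, Acsl5 at 82.1, Acsl4 1433531_at at 67.5 and Acsl3 1452771_s_at at 58.8. Probe sets of a single gene were spread as widely as this: those of Acsl4 spanned 1.39 to 3.26 log2 units on an array and those of Acsl3 2.04 to 3.41. The order of the isoforms by amount of transcript was therefore not determined. Among the probe sets of the same array, Acsl3 1452771_s_at was at percentile 63.0 on the array labelled Tg-Sirt1 1 and at 69.7 for Tg-Sirt1 2, against 62.7 for NTg 1 and 33.7 for NTg 2, and Acsl5 stayed between 81.3 and 82.3.

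The balance between isoforms can be followed from array to array, because probe affinity then cancels. It depends on the probe sets chosen, here the brightest of each gene. Acsl4 1451828_a_at was not lowest on NTg 2 and Acsl6 1437031_at was highest there, so the differences below do not hold for every probe set. Acsl4 minus Acsl5, taken over the brightest probe sets, was -1.10 on the array labelled Tg-Sirt1 1 and stood at -0.32 for Tg-Sirt1 2, against -1.23 for NTg 1 and -2.07 for NTg 2. Both Tg-Sirt1 values were above both NTg values, with means of -0.71 ± 0.55 and -1.65 ± 0.59 (SD, n = 2 each). An exact two-sided permutation test gave p = 0.33, the smallest that 2 against 2 arrays allow, so it cannot decide between the labels. Acsl3 minus Acsl5 was -1.53 and -1.07 on the Tg-Sirt1 arrays, against -1.55 and -2.63 on the NTg arrays, with the array labelled Tg-Sirt1 1 only 0.02 above NTg 1.

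Acsl5 minus Acsl6, with probe set 1451257_at for Acsl6, was -0.35 and -0.73 on the Tg-Sirt1 arrays, against -0.26 on NTg 1 and 0.51 on NTg 2. NTg 2 stood apart from the other arrays, and the sign of such a difference has no meaning between probe sets. By contrast, Acsl3 minus Acsl6 kept within a range of 0.32 over the 4 arrays and Acsl3 minus Acsl4 within 0.43. Acsl4 minus Acsl6 ranged over 0.51, with -1.05 on Tg-Sirt1 2 and -1.45 to -1.56 elsewhere. In these probe sets Acsl3, Acsl4 and Acsl6 thus kept closer to each other from array to array than to Acsl5. The differences to Acsl5 ranged over 1.24 to 1.75. This is no separate result, since Acsl5 ranged least and the other brightest probe sets fell together on NTg 2. On the other 3 arrays Acsl5 minus Acsl6 lay between -0.73 and -0.26.

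**Figure D4:**
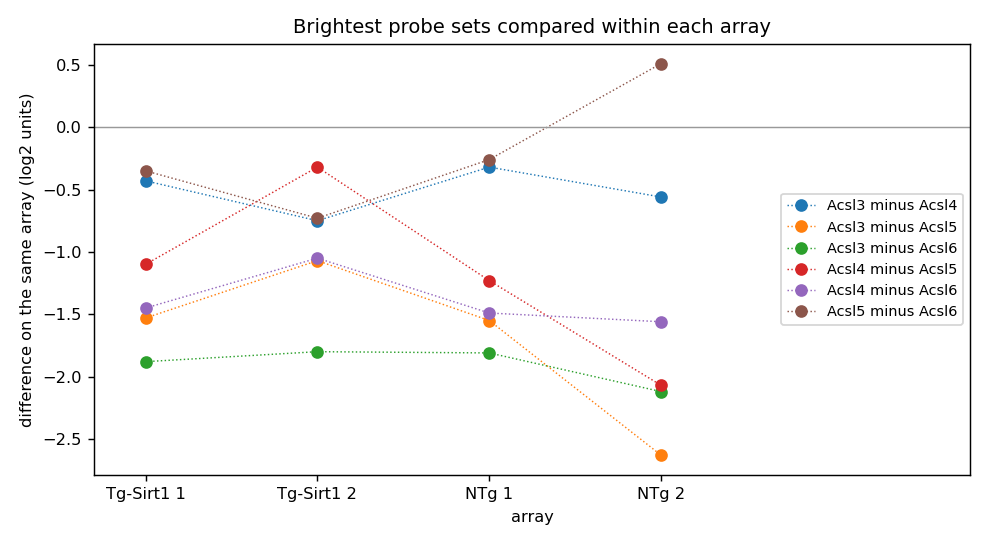
Difference in log2 signal (y axis) between the brightest probe sets of each pair of isoforms on the same array (x axis), 1 point per array, with dotted lines that only join the points of 1 pair. The pairs with Acsl5 depart on NTg 2, where Acsl5 minus Acsl6 reaches 0.51, and Acsl4 minus Acsl5 departs on Tg-Sirt1 2 (-0.32) too. The pairs among Acsl3, Acsl4 and Acsl6 range over 0.32 to 0.51.

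Other genes shared the profile of these isoforms. Likeness was the root mean square difference over the 4 arrays after the mean of each probe set was subtracted, over the brightest probe set of each of 18193 genes. Nearest to Acsl3 were Ndrg4 (0.0327), Cep128 (0.0332), the MAP kinase phosphatase gene Dusp4 (0.0363), Tceal8 (0.0517) and Tmem108 (0.076). Ndrg4 read 11.88 and 12.21 on the Tg-Sirt1 arrays, against 11.87 and 10.52 on the NTg arrays. Nearest to Acsl4 were Pxylp1 (0.075), the galactosyltransferase gene B3galt2 (0.0945), Rab40b (0.0965), Dusp4 (0.127) and Cep128 (0.131). Pxylp1 read 8.05 and 8.85 on the Tg-Sirt1 arrays, against 8.12 and 6.96 on the NTg arrays. Nearest to Acsl6 were Srrm4 (0.0255), a neural splicing regulator, Fam122b (0.0286), Stard9 (0.0421), the complement regulator gene Cd55 (0.0447) and the guidance factor gene Sema3a (0.0485). With 3 distinct arrays such likeness is a description only.

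Markers of other cell types differed between the same arrays. All 7 fibroblast markers were lowest on NTg 2, against 37.9% of all genes, as the brightest probe sets of Acsl3, Acsl4, Acsl5 and Acsl6 were. Just 2 of these 7 were highest on Tg-Sirt1 2, unlike the brightest probe sets of Acsl3, Acsl4 and Acsl6. The summed linear signal of the fibroblast markers was 22787 and 18155 on the Tg-Sirt1 arrays, against 22764 and 13499 on the NTg arrays. All 5 measured neutrophil markers were highest on NTg 2, against 34.3% of all genes. The neutrophil sums were 448 and 473 on the Tg-Sirt1 arrays, against 466 and 871 on the NTg arrays. Of 6 macrophage markers 4 were lowest on NTg 2, with sums of 5344 and 5408, against 5312 and 3990, and of 6 adipocyte markers 1 was, with sums of 1172 and 644, against 1173 and 787. Of 4 smooth muscle markers 1, Acta2, was lowest on NTg 2 and 3 on Tg-Sirt1 2, with sums of 11183 and 8712, against 11142 and 5311, in which Acta2 weighs most. Of 5 Schwann cell and neuron markers 2 were lowest on NTg 2 and 3 highest, with sums of 556 and 592, against 552 and 738. Among 6 endothelial markers, 2 were lowest on NTg 2 and 4 on Tg-Sirt1 2, with sums of 5081 and 3997, against 5096 and 3755. Cardiomyocyte markers were lowest on NTg 2 at 3 of 10 and on Tg-Sirt1 2 at 7 of 10. The 4 atrial markers were highest on Tg-Sirt1 2, against 35.8% of all genes, as the brightest probe sets of Acsl3, Acsl4 and Acsl6 were. The atrial sums were 7688 and 12224, against 7633 and 10004. Of these atrial markers 0 were lowest on NTg 2, where those Acsl probe sets were lowest. The part of these cell types in the Acsl differences was not tested, and in whole hearts fewer cells of a type cannot be told apart from less RNA per cell. The control signal of the 3′ end minus the 5′ end of Actb was 1.25 and 1.92 log2 units on the Tg-Sirt1 arrays, against 1.22 and 1.44 on the NTg arrays. For Gapdh it was 0.19 and 1.34, against 0.18 and 0.69, and the part of both was not tested.

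Genes around the synthetases were read from 5 lists of the acyl-CoA pathway, of which 76 of 82 genes were measured and 0 passed the test (limma, lowest adjusted p over all probe sets 0.996), with 0 at an unadjusted p under 0.05. Of 15 other acyl-CoA synthetases, 3 had a higher and 11 a lower Tg-Sirt1 mean, with a median log2 fold change of -0.08, against 53.1% higher and a median of 0.02 over all genes. Without NTg 2 the count with a higher Tg-Sirt1 mean was 8 of 15. The genes of smallest p were the medium-chain synthetase gene Acsm5 (-0.48) and the bubblegum family genes Acsbg2 (-0.33) and Acsbg1 (-0.19). Acsm5 read 4.64 and 4.72 on the Tg-Sirt1 arrays, against 4.64 and 5.67 on the NTg arrays, so that NTg 2 alone stood apart, upward, in a dim probe set. Without NTg 2 the values of these 3 genes were 0.04, 0.01 and -0.04.

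Thioesterases split acyl-CoA back into fatty acid and coenzyme A, and binding proteins hold it in the cytosol. Of 20 such genes 9 had a higher and 11 a lower Tg-Sirt1 mean (median -0.04). The smallest p-values were those of Them4 (log2 fold change 0.39, and 0.15 without Tg-Sirt1 2), Acot9 (0.29, and 0.12 without Tg-Sirt1 2) and Acot8 (-0.22, and -0.10 without NTg 2). Them4 read 7.87 and 8.35 on the Tg-Sirt1 arrays, against 7.88 and 7.57 on the NTg arrays, highest on Tg-Sirt1 2 and lowest on NTg 2 as in Acsl4, but its other probe set had a log2 fold change of -0.06. Acot1 and Acot2, the cytosolic and mitochondrial long-chain thioesterase genes, and Acot7 were picked out after their values were seen. Acot1 read 6.48 and 6.57 on the Tg-Sirt1 arrays, against 6.38 and 8.48 on the NTg arrays, and Acot2 read 9.28 and 9.40, against 9.25 and 10.26. Both were highest on NTg 2, where the brightest synthetase probe sets were lowest, whereas Acot7 was lowest there (10.29 on both Tg-Sirt1 arrays, against 10.30 and 9.39). Without NTg 2 the log2 fold changes of Acot1, Acot2 and Acot7 were 0.15, 0.09 and -0.01.

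Entry of acyl-CoA into mitochondria runs through the carnitine shuttle. The list for this entry also holds genes that are not part of the shuttle, such as Mlycd. Of its 7 measured genes 6 had a lower Tg-Sirt1 mean (median -0.15). A higher Tg-Sirt1 mean was found for 14.3% of them, against 53.1% of all genes. The count with a higher mean, 1, was 2 without NTg 2 and 2 without Tg-Sirt1 2. Mlycd, whose product degrades the shuttle inhibitor malonyl-CoA, read 10.14 and 9.86 on the Tg-Sirt1 arrays, against 10.17 and 10.42 on the NTg arrays. Its log2 fold change of -0.30 was -0.16 without Tg-Sirt1 2 and -0.17 without NTg 2. For the carnitine carrier gene Slc25a20 it was -0.29 (-0.03 without NTg 2, and -0.14 in its other probe set). For the carnitine acetyltransferase gene Crat it was -0.28 (0.12 without Tg-Sirt1 2, and -0.13 and -0.05 in its other probe sets). The list member Cpt1b, the muscle carnitine palmitoyltransferase gene, was not analysed here.

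Acyl-CoA is also built into glycerolipids, and 6 of 14 genes of that route had a higher and 8 a lower Tg-Sirt1 mean (median -0.03). Lpin1, a phosphatidate phosphatase gene, had a log2 fold change of 0.34 in its brightest probe set but -0.30 in its other one, and the first was 0.07 without NTg 2 and 0.61 without NTg 1. The diacylglycerol acyltransferase gene Dgat2 had -0.35 (-0.51 in its other probe set, and -0.08 without NTg 2) and Lpin3 -0.20 (-0.01 without Tg-Sirt1 2). Dgat2 read 10.67 and 10.48 on the Tg-Sirt1 arrays, against 10.65 and 11.20 on the NTg arrays, with NTg 2 highest and the labels overlapping.

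Of 20 genes of polyunsaturated acyl remodelling, eicosanoid synthesis and lipid peroxidation, the routes that Acsl4 feeds, 8 had a higher and 12 a lower Tg-Sirt1 mean (median -0.08). Pla2g4a, whose product releases arachidonic acid from phospholipid, read 6.86 and 7.31 on the Tg-Sirt1 arrays, against 7.02 and 6.42 on the NTg arrays. It was highest on Tg-Sirt1 2 and lowest on NTg 2, as Acsl4 was, with a log2 fold change of 0.37 that was 0.07 without NTg 2. Gpx4, whose product reduces lipid hydroperoxides, had -0.20 (-0.09 without Tg-Sirt1 2). The acyltransferase gene Lpcat1 had -0.33 in its brightest probe set, which was -0.01 without Tg-Sirt1 2, and -0.45, -0.22, 0.05 and 0.15 in the others. Elovl5, an elongase gene picked out after its values were seen, read 10.62 and 10.63 on the Tg-Sirt1 arrays, against 10.68 and 9.65 on the NTg arrays, and was thus low on NTg 2 alone.

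**Figure D5:**
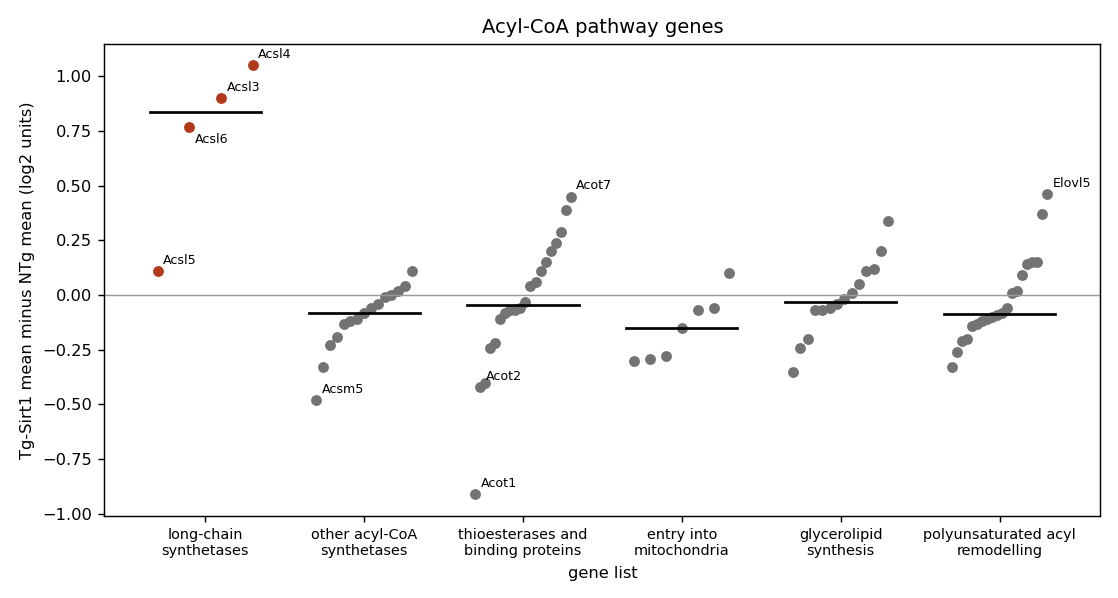
Tg-Sirt1 mean minus NTg mean in log2 units (y axis) for the brightest probe set of each gene, grouped by list (x axis), with the list median as a bar. Genes beyond 0.4 are named. The highest points are Acsl4 at 1.05, Acsl3 at 0.90 and Acsl6 at 0.77, against 0.46 for Elovl5 and 0.45 for Acot7. Without NTg 2 the values of these genes, in that order, were 0.48, 0.21, 0.24, -0.06 and -0.01. As means over all probe sets of the gene, Acsl4, Acsl3 and Acsl6 had 0.52, 0.47 and 0.32. That mean was not taken for Elovl5 and Acot7.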

How the data were processed

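The authors deposited log2 values with 2 decimals for Affymetrix arrays, 1 per probe set and array, and the tools RMA and Affymetrix Expression Console are named, without versions, per the submitters' processing notes. RMA equalises the arrays, so a change in total RNA is removed, and it damps differences of dim probe sets. Detection calls were not used here, and the number of arrays limits the precision.

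After 64 control probe sets were left out, 45037 were tested in limma 3.58.1 under R 4.3.3 (lmFit and eBayes, two-sided, Benjamini-Hochberg over all 45037, threshold 0.05). The SEs, intervals and p-values of this fit count the near-identical arrays as independent samples, which they are not. A gene's brightest probe set by mean represents it. Gene symbols came from the platform annotation (34945 with 1 symbol, 932 with several, 9160 with none here), and members matched RefSeq by Entrez identifier. Members and lists were chosen with earlier results of these data known. Named genes were the members, Sirt1, the 3 of smallest p per pathway list and the 5 nearest profiles of each member ranging over at least 1 log2 unit. Alternatives covered samples, pairing, scaling, filter, offset, moderation and choice of probe set. The scalings of single-array differences were chosen after seeing the data.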

Additional observations from a re-analysis of the deposited data

How the results depend on the processing

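No probe set passed in any setting except the unmoderated test, which called 15, none of them a member. Deposited values with 2 decimals can be equal within a label, which leaves such a test no spread. With the replicate number as a replicate block, the log2 fold change of Acsl4 1433531_at stayed 1.05 and the lowest adjusted p of all probe sets was 0.931. Over all probe sets, NTg 2 minus NTg 1 correlated at 0.293 with Tg-Sirt1 2 minus the array labelled Tg-Sirt1 1. Both differences subtract 1 of the near-identical arrays, which alone makes them alike, so this value cannot measure pairing. The replicate numbers mark no shared litter or day in the labels. With the near-identical arrays averaged and counted once, the members' log2 fold changes for Acsl4 1433531_at, Acsl3 1452771_s_at and Acsl6 1451257_at were 1.37, 1.09 and 0.91 with the pair as NTg, and 1.59, 1.58 and 1.29 with the pair as Tg-Sirt1. Adjusted p of the members was 0.508 to 0.999 over all settings. As means over all probe sets of the gene in place of the brightest, Acsl3, Acsl4 and Acsl6 had 0.47, 0.52 and 0.32, in place of 0.90, 1.05 and 0.77. Acsl4 1451828_a_at reversed to -0.02 with the pair as Tg-Sirt1.

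Leaving out each array gave -0.05 to 0.26 for Acsl5, -0.14 to 0.18 for Acsl3 1428387_at, -0.32 to 0.05 for Acsl6 1437031_at and -0.07 to 0.17 for Acsl4 1451828_a_at. It gave -0.99 to 0.04 for Acsm5, -0.66 to 0.01 for Acsbg2, -0.67 to 0.12 for Crat, -1.96 to 0.15 for Acot1, -0.92 to 0.09 for Acot2, -0.01 to 0.90 for Acot7 and -0.06 to 0.98 for Elovl5. A lone array left under a label is assumed to vary like the other label. Other acyl-CoA synthetases with a higher Tg-Sirt1 mean numbered 4 to 8 with an array left out (8 without NTg 2) and 5 after a second quantile normalization and after centring, and genes of entry into mitochondria 1 to 2 with an array left out. The cause was not tested.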
